A study of Rattus norvegicus with 6 samples.

Results

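The genes described here are the E2F transcription factors and the pocket proteins, the retinoblastoma family that binds them. The members were 10 genes named by symbol, namely E2f1, E2f2, E2f3, E2f4, E2f5, E2f7, E2f8, Rb1, Rbl1 and Rbl2, among the 18930 rows of the count table. A row under its symbol was present for 9 of the 10, and all 9 passed the filter on low counts, among 11870 genes tested. E2f1 had no row under that symbol and is not analysed here. RNA was sequenced from NRK-52E cells, an established wild-type line of rat kidney epithelium, in 3 samples kept in 10 mM of streptozotocin (STZ) for 24 h and 3 vehicle-treated samples (Control). STZ is a nitrosourea with a glucose moiety that enters cells by glucose transport and alkylates DNA. The sources do not say whether the 3 samples of a group were separate cultures, so the spread given is the spread between samples of 1 line and may be technical.

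Pocket proteins hold E2F factors at the promoters of genes for DNA replication and mitosis and keep those genes silent. Cyclin-dependent kinases release the factors by phosphorylating the pocket protein, and the cell then passes from G1 into S phase. E2F1, E2F2 and E2F3 activate transcription and pair with the retinoblastoma protein, which Rb1 encodes. E2F4 and E2F5 pair mainly with p107 and p130, the products of Rbl1 and Rbl2, and with the MuvB core these form the repressor complex DREAM. E2F7 and E2F8 are atypical factors that bind DNA without a dimerization partner, lack a pocket-protein binding site and repress E2F target genes late in S phase. After DNA damage, p53 raises the kinase inhibitor p21, encoded by Cdkn1a, which keeps pocket proteins unphosphorylated.

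Total counts lay between 10430924 and 15191349 per sample, and the members had between 109 and 1018 reads in a sample. Values are given as CPM, read counts scaled by TMM to a common library total, as mean ± SD (n = 3). They compare samples for 1 gene and not genes with each other, since they were not divided by transcript length. STZ was compared with Control by the quasi-likelihood test of edgeR, whose p-values were adjusted over the whole table by the Benjamini-Hochberg method, and passing the test means an adjusted p under 0.05. In RNA from whole cultures, fewer cells with a transcript and less of it per cell cannot be told apart. Of the 5 epithelial markers looked up, Krt8 had 11691 to 24040 reads in a sample and rose from 1149 ± 40.7 to 1604 ± 8.05 CPM, a log2 fold change of 0.48. Cdh1 had 16 to 35 reads and a log2 fold change of -0.69 (edgeR adjusted p = 0.0296), with overlapping groups and a call that was lost by DESeq2 and without Control replicate 1, Control replicate 3, STZ replicate 1 or STZ replicate 3. Krt18 had at most 3 reads, and Krt19 and Epcam had no row under those symbols. Whether reads of these genes were counted under other rows could not be checked here. Of 6 proximal tubule markers, Aqp1 alone passed the filter and fell from 13.1 ± 3.68 to 5.43 ± 0.663 CPM (log2 fold change -1.25, edgeR adjusted p = 9.36e-09). Lrp2 and Slc34a1 had at most 4 reads in a sample, and Cubn at most 10. The glucose transporter genes Slc5a2 and Slc2a2 had at most 7 and 1 reads, and the route by which STZ entered these cells was not tested. By library size alone, endothelial markers summed to at most 0.772 CPM and leukocyte markers to at most 2.37 CPM, while fibroblast and smooth muscle markers summed to 157 to 166 CPM in Control and 116 to 131 CPM in STZ. Of the 5 fibroblast and smooth muscle markers tested, 4 were lower, among them Col3a1 with a log2 fold change of -1.35, and 1 was higher, Des at 2.65. The part of these markers in the results was not tested.

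Both atypical factors, E2f7 and E2f8, and the pocket-protein genes Rbl1 and Rbl2 fell in STZ-treated cells, while Rb1 rose. The activator genes E2f2 and E2f3 and the repressor genes E2f4 and E2f5 did not pass the test. Of the 9 members tested, 4 (44.4%) were lower and 1 (11.1%) was higher. Among all genes tested, 25.1% were lower and 25.9% were higher. The 5 members that passed made up 55.6% of those tested, against 50.9% of all genes, so the share that passed was near the background. Groups did not overlap in the same 5 members, against 56.3% of all genes. No member reached an absolute log2 fold change over 1, which with an adjusted p under 0.05 was met by 3.37% of all genes. With the same test, 5 of the 9 members had an unadjusted p under 0.05, and DESeq2 likewise placed no member past both thresholds. The median log2 fold change of the 9 members was -0.11, against -0.01 over all genes tested.

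**Figure D1:**
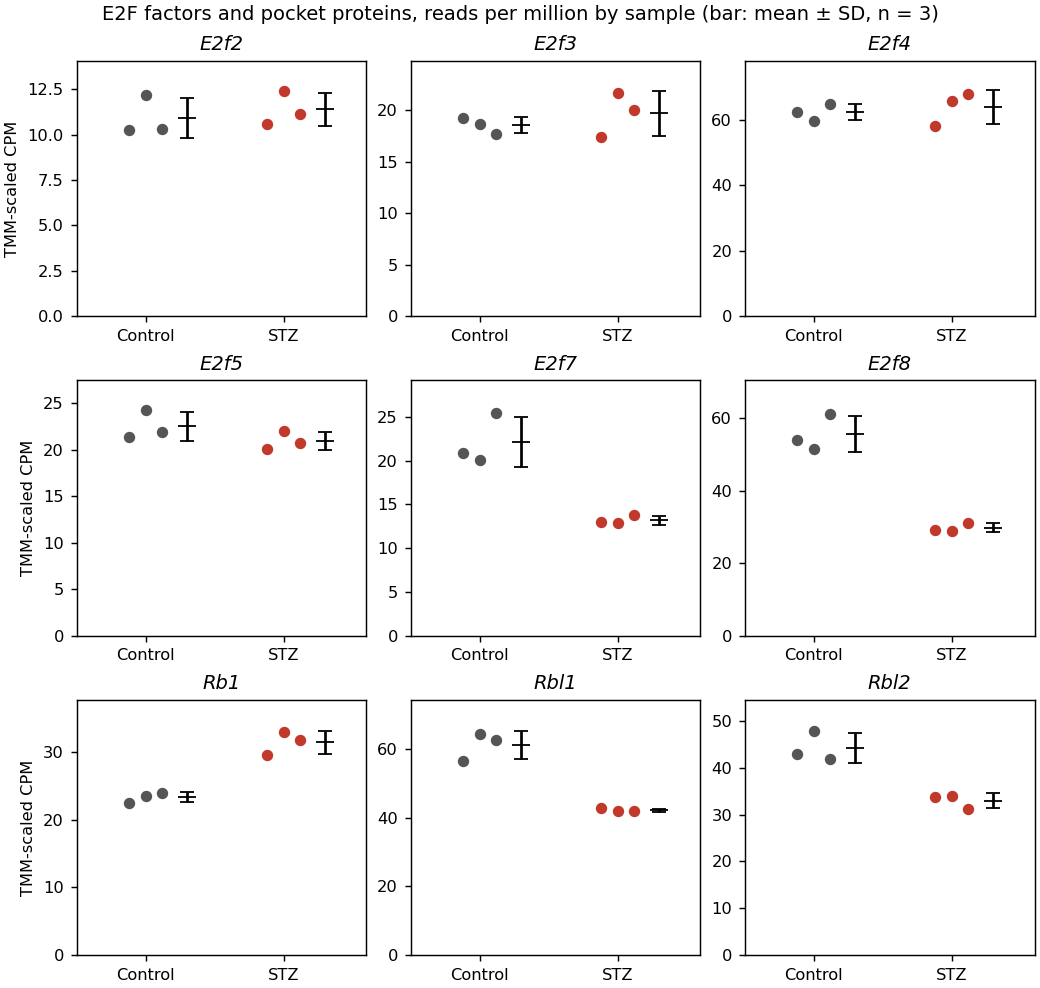
TMM-scaled CPM of the 9 members with a row (vertical axes, linear, from 0), with 1 point per sample, Control in grey and STZ in red, and bars for mean ± SD (n = 3). Control and STZ samples are apart for E2f7, E2f8, Rb1, Rbl1 and Rbl2 and overlap for E2f2, E2f3, E2f4 and E2f5.

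E2f8, an atypical repressor, changed most among the members. It had 54.1, 51.7 and 61.3 CPM in Control replicates 1, 2 and 3, and 29.3, 29.0 and 31.2 CPM in STZ replicates 1, 2 and 3. Every STZ sample lay far below every Control sample. The mean was 55.7 ± 5.01 CPM in Control and 29.8 ± 1.20 CPM in STZ, a ratio of 0.535. The log2 fold change was -0.90 (standard error 0.07, 95% interval -1.04 to -0.77, adjusted p = 5.01e-15 by edgeR's quasi-likelihood test). By log2 fold change it ranked 190 among the falls of the 11870 genes tested, and 4.49% of these genes changed by more in either direction.

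E2f7, the other atypical factor, is also known as a gene that p53 can induce. Its level was 20.9, 20.1 and 25.4 CPM in Control replicates 1 to 3 and 12.9, 12.9 and 13.7 CPM in STZ replicates 1 to 3. Control replicate 3 was the highest sample, and the groups did not overlap without it either. The mean went from 22.1 ± 2.86 to 13.2 ± 0.490 CPM, with a log2 fold change of -0.75 (standard error 0.10, 95% interval -0.95 to -0.56, edgeR adjusted p = 1.53e-08). With Control replicate 3 left out the log2 fold change of E2f7 was -0.63. The reads of E2f7 per read of E2f8 were 0.387 to 0.415 in Control and 0.440 to 0.443 in STZ. This ratio within a sample does not depend on library scaling and was higher in all STZ samples than in all Control samples. The difference of the mean log2 ratios was 0.155. Counting alone gives 6.25% of the mean for E2f7 and 3.94% for E2f8 in Control, and 7.51% and 4.99% in STZ. The STZ ratios thus lay closer together than counting alone would give, and the narrow gap between groups was not tested against counting error. With 3 samples against 3 an exact two-sided permutation test cannot give a p below 0.1, so no test of this ratio is given.

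Rbl1 encodes p107, whose own gene is a known E2F target. Control replicates 1 to 3 had 56.5, 64.3 and 62.5 CPM, and STZ replicates 1 to 3 had 42.7, 41.9 and 42.0 CPM. All STZ samples were below all Control samples and nearly equal. The SD in STZ was 1.09% of the mean, below the 4.2% that counting alone gives, so this closeness cannot be read as a tightly held level. The means were 61.1 ± 4.10 and 42.2 ± 0.460 CPM, and the log2 fold change was -0.53 (standard error 0.06, 95% interval -0.65 to -0.41, edgeR adjusted p = 4.33e-10).

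Rbl2 encodes p130, the pocket protein known for its role in quiescent cells. It stood at 43.0, 47.8 and 42.0 CPM in Control replicates 1 to 3 and at 33.7, 34.1 and 31.2 CPM in STZ replicates 1 to 3, again without overlap. The mean fell from 44.3 ± 3.14 to 33.0 ± 1.57 CPM, a log2 fold change of -0.43 (standard error 0.07, 95% interval -0.56 to -0.29, edgeR adjusted p = 9.71e-07). In the GRCr8 annotation the span of Rbl2 overlaps that of Aktip, and how the counting treated strand is not stated in the sources used here. Aktip had a log2 fold change of -0.19 (edgeR adjusted p = 0.0289, 0.0103 to 0.0981 over the alternatives), and this call was lost by DESeq2 and without Control replicate 1, STZ replicate 1 or STZ replicate 2.

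Rb1 was the member that rose. Its level was 22.5, 23.6 and 24.0 CPM in Control replicates 1 to 3 and 29.7, 33.0 and 31.8 CPM in STZ replicates 1 to 3. The lowest STZ sample was above the highest Control sample. The mean went from 23.4 ± 0.761 to 31.5 ± 1.70 CPM, a ratio of 1.34 and a log2 fold change of 0.43 (standard error 0.08, 95% interval 0.27 to 0.58, edgeR adjusted p = 7.6e-06). Lpar6, a receptor gene whose span overlaps that of Rb1, had 25.6 ± 0.896 CPM in Control and 28.3 ± 2.25 CPM in STZ, with a log2 fold change of 0.15 (95% interval -0.01 to 0.30, edgeR adjusted p = 0.111). Without STZ replicate 1 it passed the test (edgeR adjusted p = 0.0477). The part of reads from Lpar6 in the Rb1 count was not tested.

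Because Rb1 and the other pocket proteins moved in opposite directions, the balance of their reads shifted. For each read of Rbl1 there were 0.399, 0.366 and 0.384 reads of Rb1 in Control replicates 1 to 3, and 0.694, 0.788 and 0.756 in STZ replicates 1 to 3. The difference of the mean log2 ratios was 0.96. Against Rbl2, the ratio of Rb1 was 0.530 ± 0.0403 in Control and 0.957 ± 0.0699 in STZ. By contrast the ratio of Rbl2 to Rbl1 was 0.671 to 0.761 in Control and 0.741 to 0.813 in STZ, and these ranges overlapped. Reads of E2f3 per read of E2f8, an activator beside an atypical repressor, went from 0.335 ± 0.0401 to 0.661 ± 0.0796. The ratios with Rb1 and the ratio of E2f3 to E2f8 were chosen after the values were seen, and they are given without a test.

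**Figure D2:**
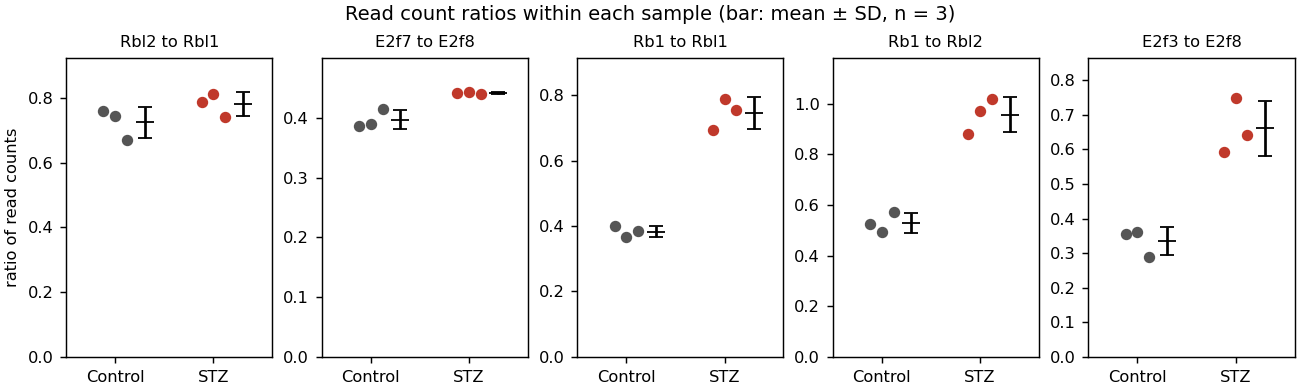
Ratio of the read counts of a pair of members within each sample (vertical axes, linear, from 0), with Control in grey, STZ in red and bars for mean ± SD (n = 3). Rb1 to Rbl1, Rb1 to Rbl2 and E2f3 to E2f8 separate the groups widely, E2f7 to E2f8 narrowly, and Rbl2 to Rbl1 overlaps.

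The activators that were tested, E2f2 and E2f3, did not pass the test, and E2f1 had no row. E2f2 had the fewest reads, with 10.3, 12.2 and 10.3 CPM in Control replicates 1 to 3 and 10.6, 12.4 and 11.1 CPM in STZ replicates 1 to 3. Its log2 fold change was 0.06 (95% interval -0.18 to 0.29, edgeR adjusted p = 0.707). E2f3 had 19.2, 18.6 and 17.7 CPM in Control and 17.4, 21.7 and 20.0 CPM in STZ, in replicate order, so that the STZ samples spanned the Control samples. The log2 fold change of E2f3 was 0.09 (95% interval -0.10 to 0.27, edgeR adjusted p = 0.453).

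Among the E2F factors of repressor complexes, E2f4 had 62.5, 59.7 and 64.8 CPM in Control replicates 1 to 3 and 58.0, 65.7 and 67.9 CPM in STZ replicates 1 to 3. STZ replicate 1 was the lowest of the 6 samples and STZ replicate 3 the highest. The log2 fold change was 0.03 (95% interval -0.08 to 0.15, edgeR adjusted p = 0.659), the narrowest interval among the members. E2f5 had 21.3, 24.3 and 21.9 CPM in Control and 20.1, 22.0 and 20.8 CPM in STZ, with overlapping groups. Its log2 fold change was -0.11 (95% interval -0.28 to 0.06, edgeR adjusted p = 0.298). The span of E2f5 overlaps that of Rbis, a name carried by 2 rows of the table, and no value is given for it. For E2f2, E2f3, E2f4 and E2f5 the test does not show that the groups were equal, and the intervals give the changes that the data allow. The SD of E2f2 was 10.1% of its mean in Control, while counting alone gives 8.94% at its depth. For E2f4 in STZ the SD was 8.14%, against 3.42% from counting. The SD was below counting error for E2f3 in Control, 4.17% against 6.87%, and for E2f5 in STZ, 4.64% against 5.98%. In the remaining groups of these genes it was above counting error.

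**Figure D3:**
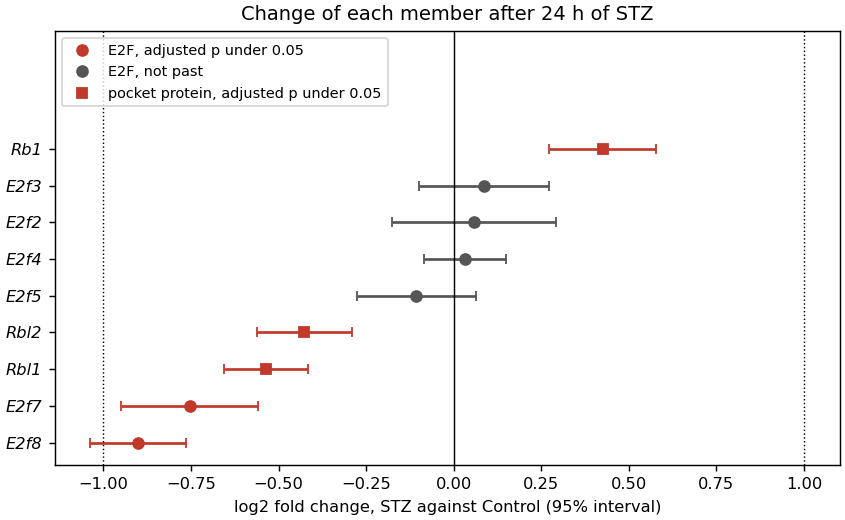
Log2 fold change of each member (horizontal axis, STZ against Control) with its 95% interval from edgeR's quasi-likelihood fit, circles for E2F factors and squares for pocket proteins, red where the adjusted p was under 0.05, and dotted lines at -1 and 1. E2f8, E2f7, Rbl1 and Rbl2 lie below 0, Rb1 above it, and the intervals of E2f2, E2f3, E2f4 and E2f5 include 0.

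Genomic sequence near the starts of the members was read for the motifs by which this family is known to bind, because several E2F and pocket-protein genes are themselves E2F targets. RefSeq promoter windows of 300 bases (build GRCr8) were matched by symbol for 5 of the 10 members. The E2F words searched on both strands were TTTCCCGC, the variant TTTCGCGC and the variant TTTGGCGC. The same words were then searched without their first letter, as TTCCCGC, as the variant TTCGCGC and as the variant TTGGCGC, which every match of the longer words also contains. The cell cycle homology region, CHR, to which MuvB binds, was searched as TTTGAA. Of 33469 promoter windows, 1.72% held an 8-letter E2F word, 7.52% a 7-letter word and 18.3% the CHR word. These shares are over all windows, not only those of genes tested, and were not matched for base composition. Among the members, G and C made up from 54.7% of the window (Rbl2) to 79.7% (Rb1). The windows of Rbl1, which fell, of Rb1, which rose, of E2f7, which fell, and of E2f3, which did not pass the test, are shown 5′ to 3′ on the strand of the gene, with every match in capitals.
Rbl1, chr3:166289327-166289626, minus strand: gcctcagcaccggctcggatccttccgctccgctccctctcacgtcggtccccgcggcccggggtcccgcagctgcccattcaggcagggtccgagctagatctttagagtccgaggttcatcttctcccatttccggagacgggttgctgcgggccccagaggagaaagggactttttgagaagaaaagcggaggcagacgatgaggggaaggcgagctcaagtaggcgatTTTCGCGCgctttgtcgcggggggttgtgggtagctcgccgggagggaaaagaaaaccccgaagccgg
Rb1, chr15:54911808-54912107, minus strand: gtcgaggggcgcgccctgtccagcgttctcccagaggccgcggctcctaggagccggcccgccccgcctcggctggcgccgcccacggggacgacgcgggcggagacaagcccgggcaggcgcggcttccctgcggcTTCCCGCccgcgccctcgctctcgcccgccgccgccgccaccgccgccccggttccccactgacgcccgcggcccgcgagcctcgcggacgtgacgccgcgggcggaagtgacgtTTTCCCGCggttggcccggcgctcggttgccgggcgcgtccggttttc
E2f7, chr7:48036653-48036952, plus strand: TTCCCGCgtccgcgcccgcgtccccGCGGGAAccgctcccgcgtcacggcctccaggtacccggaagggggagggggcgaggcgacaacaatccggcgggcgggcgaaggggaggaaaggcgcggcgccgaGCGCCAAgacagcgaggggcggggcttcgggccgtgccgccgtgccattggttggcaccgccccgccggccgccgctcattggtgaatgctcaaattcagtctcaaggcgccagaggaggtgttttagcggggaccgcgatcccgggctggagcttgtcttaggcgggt
E2f3, chr17:34810166-34810465, plus strand: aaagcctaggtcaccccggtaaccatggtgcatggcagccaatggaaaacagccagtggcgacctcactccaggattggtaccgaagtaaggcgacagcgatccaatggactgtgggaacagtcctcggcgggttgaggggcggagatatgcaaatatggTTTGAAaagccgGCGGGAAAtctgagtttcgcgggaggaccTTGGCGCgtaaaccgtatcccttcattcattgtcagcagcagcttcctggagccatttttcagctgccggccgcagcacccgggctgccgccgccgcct

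In the Rbl1 window TTTCGCGC stood at bases 233 to 240, a word found in 0.326% of all windows. The Rb1 window held TTTCCCGC at bases 253 to 260 and a further TTCCCGC at bases 138 to 144. E2f7 had no 8-letter word but 3 of the 7-letter words, at bases 1 to 7, 26 to 32 and 132 to 138. E2f3 had TTTCCCGC in reverse orientation at bases 173 to 180, TTGGCGC at bases 202 to 208 and the CHR word at bases 161 to 166. Rbl2 had no E2F word and the CHR word at bases 255 to 260. E2F words were thus found in windows of a gene that rose, of genes that fell and of a gene that did not pass the test. A match is a description of the letters and not a binding site.

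The genes that work with the E2F factors moved in both directions by small amounts. Of the 10 dimerization partners, MuvB subunits and related factors listed, 9 were tested. Of these, 4 (44.4%) were higher and 3 (33.3%) lower, against 25.9% and 25.1% of all genes. The median log2 fold change was -0.08, against -0.01 over all genes tested. Mybl2, a B-Myb gene and E2F target, had the smallest p among the rises, with a log2 fold change of 0.27 (standard error 0.05, edgeR adjusted p = 3.26e-06). Rbbp4, a histone-binding MuvB subunit, had the smallest p among the falls, with a log2 fold change of -0.32 (standard error 0.05, edgeR adjusted p = 3.27e-06). The dimerization partner Tfdp1 went from 189 ± 9.23 to 161 ± 2.69 CPM. E2f6, a repressor of the family that acts without pocket proteins, had a log2 fold change of -0.15 (95% interval -0.27 to -0.02, edgeR adjusted p = 0.0418), and its groups overlapped. That call was lost in 6 of 15 alternative fits, namely without a filter, by DESeq2, and without Control replicate 1, Control replicate 3, STZ replicate 2 or STZ replicate 3, with adjusted p-values of 0.0125 to 0.193 over the 15 fits by edgeR, limma-voom or DESeq2. Tfdp1 and E2f6 were named after their values were seen. The row for Foxm1 held at most 4 reads in a sample and was not tested, and whether its reads were counted under another row could not be checked here.

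Among the cyclins, kinases and kinase inhibitors that act on pocket proteins, 13 of 16 listed genes were tested. Of these, 3 (23.1%) were higher and 8 (61.5%) lower, against 25.9% and 25.1% of all genes. The median log2 fold change was -0.23, against -0.01 over all genes tested. The list pools kinases and cyclins with their inhibitors, which act against each other, and both kinds were among the lower genes. Cdkn1a, encoding p21, had 231, 228 and 236 CPM in Control replicates 1 to 3 and 1271, 1310 and 1312 CPM in STZ replicates 1 to 3. It passed both thresholds with a log2 fold change of 2.49. The other inhibitors tested, Cdkn1b, Cdkn2c and Cdkn2d, were lower, with log2 fold changes of -0.27, -0.27 and -0.47. The D-type cyclins Ccnd2 and Ccnd3 were higher, at 0.90 and 0.20, while Ccnd1 did not pass the test. These other inhibitors and D-type cyclins were named after their values were seen. Ccna2, the S-phase cyclin A2, had the smallest p among the falls, from 190 ± 4.26 to 133 ± 5.70 CPM, a log2 fold change of -0.52 (standard error 0.04, edgeR adjusted p = 1.22e-13). Of the 10 corepressors of pocket proteins listed, 9 were tested, 3 (33.3%) higher and 4 (44.4%) lower. Their median log2 fold change was -0.06. All genes tested had 25.9% higher, 25.1% lower and a median of -0.01. Sin3a and Sin3b, related scaffolds of histone deacetylase complexes, had the smallest p in each direction, with log2 fold changes of -0.39 and 0.25.

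Known E2F target genes of the G1/S transition were more often lower than higher. All 42 listed were tested, 21 (50%) were lower and 5 (11.9%) higher, against 25.1% and 25.9% of all genes, and the median log2 fold change was -0.12, against -0.01. Pcna, the sliding clamp of DNA polymerase, had the smallest p among the falls, from 278 ± 11.1 to 167 ± 4.40 CPM, a log2 fold change of -0.73 (standard error 0.04, edgeR adjusted p = 3.7e-19). Ung, the uracil DNA glycosylase, was the listed target past both thresholds, at -1.95. Tyms, thymidylate synthase, had the smallest p among the rises, at 0.52. Of the 34 targets with a promoter window, 18 (52.9%) held an 8-letter E2F word, against 1.72% of all windows. The windows were not matched for base composition and the genes were listed as known E2F targets, so this gap was not tested. Of these 18 targets, 11 were lower and 3 higher, with a median log2 fold change of -0.15. Among the 16 without the word, 6 were lower and 2 higher, with a median of -0.03. With the 7-letter words the order of the medians turned around, at -0.12 for the 27 targets with a word, of which 13 were lower and 5 higher, and at -0.51 for the 7 without, of which 4 were lower and 0 higher. The difference between targets with and without a word was not tested.

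Mitotic genes known as DREAM targets were also mostly lower, 19 (73.1%) of 26 tested, with 5 (19.2%) higher. The shares over all genes were 25.1% lower and 25.9% higher. The median log2 fold change of the mitotic genes was -0.20, against -0.01 over all genes tested. Mki67, the proliferation marker Ki-67, had the smallest p among the falls, from 445 ± 25.9 to 279 ± 14.8 CPM, a log2 fold change of -0.67 (standard error 0.04, edgeR adjusted p = 9.91e-18). Cdc25c, the phosphatase that activates the mitotic kinase, had the smallest p among the rises, at 0.45. Of 23 with a promoter window, 16 (69.6%) held the CHR word, against 18.3% of all windows, and 1 held an 8-letter E2F word. These genes too were listed as known targets, and the windows were not matched for base composition. Of the 16 with the CHR word, 11 were lower and 3 higher, with a median of -0.26. Without the CHR word, 5 of 7 were lower and 2 higher, with a median of -0.20. By library size alone 2 of the 26 mitotic genes were higher.

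**Figure D4:**
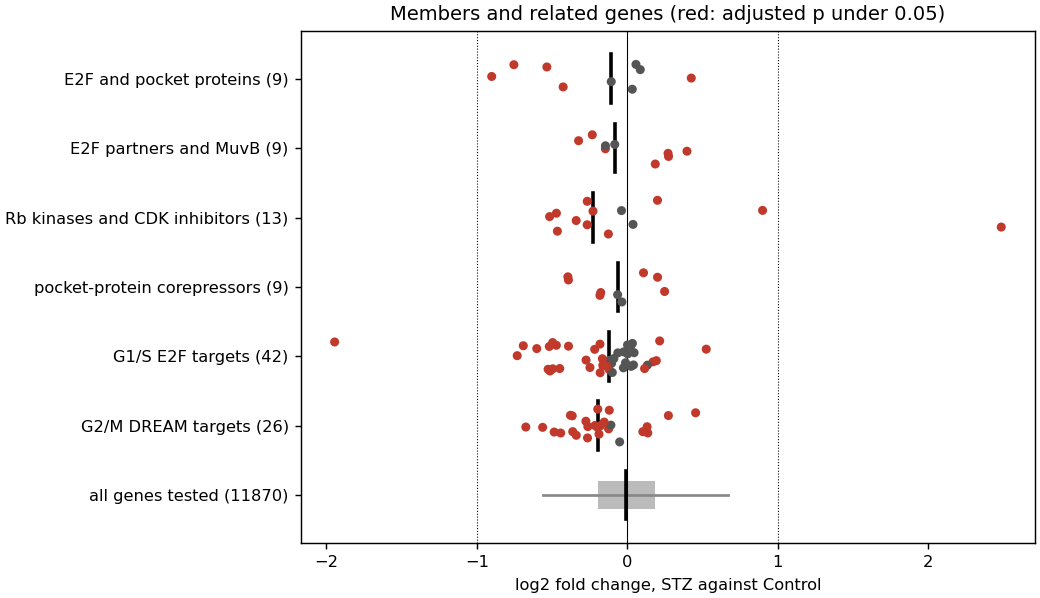
Log2 fold change (horizontal axis, STZ against Control) of each gene tested in the members and 5 lists, red where edgeR's adjusted p was under 0.05, with a black bar at the median of each list and the number tested in parentheses. The lowest row gives all genes tested, as a grey box from percentile 25 to 75 and a line from percentile 5 to 95, -0.56 to 0.67. E2f7 and E2f8 lie outside that line, and the G1/S and G2/M targets sit mostly to the left of 0.

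Across the 6 samples, the pattern of E2f8, the member with the smallest p, was closest to those of Fzd4, Bub1 and Knl1 by Pearson correlation of log2 CPM (r = 0.999 for each, n = 6). These samples share the treatment contrast, and 900 of 10344 genes compared had r over 0.95. Fzd4 encodes a Wnt receptor, and Bub1 and Knl1 encode kinetochore proteins of the mitotic checkpoint. Their log2 fold changes were -0.30, -0.37 and -0.53, against -0.90 for E2f8.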

How the data were processed

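The authors prepared stranded mRNA libraries (TruSeq), aligned them with STAR 2.7.10a against Rnor6, the rat genome, tallied uniquely mapped reads by featureCounts, and deposited the raw counts per gene, not normalized, with 1 column per sample. The annotation release and strand setting are not given in the sources used here.

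TMM scaling, the filter on low counts (filterByExpr at default settings), the dispersion fit and the quasi-likelihood test came from edgeR 4.0.16 in R 4.3.3, run over all 6 samples without covariates. Each standard error is the size of the log2 fold change over the square root of F. The common biological coefficient of variation was 3.25%. No pair of samples within a group was as close as counting error alone would give (chi-square over its degrees of freedom at least 1.87). Steps were tested on simulated counts of 11870 genes, with the same biological variation for every gene, unlike real data. The edgeR test recovered 86 of 100 genes changed by a log2 fold change of 0.5. At a log2 fold change of 1 it recovered 90 of 100, and 11 unchanged genes were called.

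The members and lists were chosen with earlier results of these data known. Beside the members, the genes named are those with the smallest p in each direction of each list and those past both thresholds; others are marked. Alternatives were other filters, scalings and tests (DESeq2 1.42.0, voom of limma 3.58.1), thinned libraries, the replicate block and each sample left out. Levels per transcript length were not computed, because the reference used gives gene spans only. All 10 members were found in the GRCr8 annotation, whose build differs from that of the counts.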

Additional observations from a re-analysis of the deposited data

How the results depend on the processing

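The 5 members that passed the test passed in the same direction under all 15 alternatives, with log2 fold changes of -0.95 to -0.82 for E2f8, -0.82 to -0.63 for E2f7, -0.59 to -0.50 for Rbl1, -0.47 to -0.37 for Rbl2 and 0.39 to 0.47 for Rb1. E2f2, E2f3, E2f4 and E2f5 passed under none of them, with adjusted p-values of at least 0.124 by edgeR, limma-voom or DESeq2. The sign changed for E2f2 without STZ replicate 2 (-0.000238), for E2f4 by library size only (-0.000318) and for E2f4 without STZ replicate 3 (-0.0161). Over the fits with 1 sample left out, E2f2 lay between -0.000238 and 0.14 and E2f4 between -0.0161 and 0.10. E2f3 lay between 0.02 without STZ replicate 2 and 0.17 without STZ replicate 1, and E2f5 between -0.14 without Control replicate 1 and -0.05 without Control replicate 2. Of 270 counts of members and listed genes, 269 stayed within 1.5 times of the reported count. The exception was the number of mitotic genes higher in STZ, 5 as reported and 2 by library size only, a scaling that moved the median of all genes by -0.0335. The 270 include the counts past both thresholds, which were 0 or 1 in every fit. A change from 3 to 2 lies within the bound, as for E2F partners and MuvB genes lower without a filter. The log2 fold changes of the other genes refitted kept their direction in 345 of 345 refits and also their side of the threshold in 329. The exceptions were E2f6, which lost its call in 6, Cdh1 in 5 and Aktip in 4, and Lpar6, which passed the test in 1.

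Control and STZ share replicate numbers. Deviations of same-numbered samples from their group means correlated across 10131 genes, not independent of each other, at 0.0371, -0.0263 and 0.125. Of the 6 samples, 3 correlated best with their own number, and nothing else ties the numbers to a shared culture. In the fit with the replicate block, 4 members were lower and 1 was higher, as in the fit without a block. With that block no member or other gene refitted crossed the threshold, and no count of a list moved by over 1.5 times. Total counts limit the precision for E2f2, the member with the fewest reads. No group held enough samples to test for an outlying sample.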
